A study of Mus musculus with 6 samples.

Results

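The 36 genes described here carry interferon signalling and antigen presentation: 4 receptor subunits, 3 kinases, 8 transcription factors, 15 interferon-stimulated genes and 6 genes of antigen presentation. They were chosen by symbol with earlier results of these data known, and all 36 were found among the 32285 features of the deposited matrices. Nuclei were sorted from the brains of C57BL/6 mice of wildtype genotype. The mice had undergone either a sham operation or 5/6 nephrectomy, a removal of most kidney tissue that models chronic kidney disease, and tissue was taken 6 weeks later. There were 3 sham and 3 nephrectomy libraries. The labels do not say whether each library came from its own mouse, so the p-values measure the spread between these libraries, which may be technical. Unique molecular identifiers (UMIs), which count captured RNA molecules, were summed per library and class of nuclei, and levels are given in CPM, the UMIs of a gene per 1000000 UMIs of that sum.

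Type I interferons bind the receptor of Ifnar1 and Ifnar2, and interferon gamma binds that of Ifngr1 and Ifngr2. The kinases Jak1, Jak2 and Tyk2 on these receptors phosphorylate STAT proteins, which enter the nucleus alone or with interferon regulatory factors (the Irf genes) and switch on interferon-stimulated genes. Class I molecules, made of a heavy chain such as H2-K1 or H2-D1 and the light chain B2m, show peptides on the cell surface, and both brain endothelial cells and microglia are known to respond to interferon.

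The interferon-stimulated response element is a DNA motif found near many interferon-induced genes, here searched as GAAA, any 2 bases and GAAA on both strands of RefSeq promoters (build GRCm38.p6, 250 bases before to 50 after each start). Of the 36 genes, 31 matched the promoter table, with 37 promoters. The element was in 12 of these 37 promoters (32.4%), against 1131 of all 32851 promoters (3.44%). Among the interferon-stimulated genes, 8 of the 12 with a promoter in the table held it, as did B2m among the 4 matched genes of antigen presentation. The gamma-activated site, searched likewise as TTC, any 3 bases and GAA, was in 8 of the 37 promoters and in 8.30% of all promoters. Windows of 80 bases are shown for 5 interferon-stimulated genes and B2m, whose levels are compared below, with matches to the response element in capitals. Such a match is a run of letters and not a measured binding site.
Isg15 (chr4:156200847-156200926, minus strand, from -108 to -29 of the start): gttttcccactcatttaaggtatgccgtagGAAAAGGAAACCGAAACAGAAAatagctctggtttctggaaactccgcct
Ifit1 (chr19:34640755-34640834, plus strand, from -134 to -55): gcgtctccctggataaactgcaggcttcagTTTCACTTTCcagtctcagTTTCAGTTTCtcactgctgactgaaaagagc
Ifit3 (chr19:34583343-34583422, plus strand, from -186 to -107): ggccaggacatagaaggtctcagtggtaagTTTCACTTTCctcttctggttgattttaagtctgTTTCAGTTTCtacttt
Rsad2 (chr12:26456523-26456602, minus strand, from -150 to -71): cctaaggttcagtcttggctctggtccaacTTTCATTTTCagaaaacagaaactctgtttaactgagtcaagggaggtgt
Trim30a (chr7:104465194-104465273, minus strand, from -80 to -1): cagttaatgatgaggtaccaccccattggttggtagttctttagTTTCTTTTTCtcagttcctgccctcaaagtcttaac
B2m (chr2:122147518-122147597, plus strand, from -169 to -90): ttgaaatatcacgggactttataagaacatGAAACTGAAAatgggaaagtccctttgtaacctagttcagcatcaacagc
The Isg15 window held 3 overlapping matches, the Ifit1 and Ifit3 windows 2 each, and the Rsad2, Trim30a and B2m windows 1 each. Matches that begin with TTTC are the motif on the opposite strand. Several of the genes lie close together in the genome. Ifnar2, Ifnar1 and Ifngr2 start at 91372783, 91485238 and 91547072 on chromosome 16, and Ifit2, Ifit3 and Ifit1 start at 34550694, 34583531 and 34640871 on chromosome 19, all on the plus strand.

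Nuclei were given a class from UMIs of marker genes, none of which is among the 36. Of 42589 barcodes, 40685 were kept (500 genes or more, mitochondrial UMIs no more than 5%), and 17119 of those took a class (23.3% in nephrectomy 1 and 44.6% to 59.6% in the other libraries). The gates gave 298 endothelial-like and 416 microglia-like nuclei, 77 mural-like, 80 fibroblast/leptomeningeal-like, 1903 astrocyte-like, 2649 oligodendrocyte-like, 707 oligodendrocyte precursor-like, 2534 excitatory neuron-like, 1626 inhibitory neuron-like and 6829 striatal neuron-like. The study's design text names cortex, whereas the striatum lies outside it. In endothelial-like nuclei the 15 endothelial markers summed to 13645 to 18004 CPM, against 48.8 to 100.1 in microglia-like nuclei. In the endothelial-like nuclei microglial markers summed to 18.8 to 254 CPM. Mural markers there summed to 469.5 and 731 CPM in the sham and 734 and 1368 in the nephrectomy sums, and their part was not tested. All 4 markers of border macrophages and 6 of 7 of T, NK and B cells were at 0. Red blood cell markers reached 137 and 1439 CPM in the sham sums and 12.1 and 94.1 in the nephrectomy sums, and their part in the results was not tested. Only sums of at least 20 nuclei were used, which left sham 2 and 3 and nephrectomy 2 and 3 for endothelial-like nuclei (53150 to 153405 UMIs), 1 sham library for mural-like and 2 sham libraries for fibroblast/leptomeningeal-like nuclei, and all 6 libraries for each of the other classes.

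Endothelial-like nuclei held more RNA of these genes than other classes: 27 of the 36 were higher there than in the mean of the other 9 classes and none was lower (1 edgeR quasi-likelihood fit over 49 sums with the library as a block, adjusted p under 0.05). Of all 16012 genes tested, 10.2% were higher and 3.51% lower in the same contrast. The genes were chosen with earlier results of these data known, so these shares describe the list and are not independent support. The median log2 difference was 3.11 over the 36 genes and 0.08 over all genes. Summed over the 36 genes, the level was 3504, 3971, 3764 and 4030 CPM in sham 2, sham 3, nephrectomy 2 and nephrectomy 3. In microglia-like nuclei it was 1761 to 3004 over the 6 libraries, and in striatal neuron-like nuclei 398 to 571. These 4 sums were above every sum of any other class. The 18 endothelial-like nuclei of nephrectomy 1, too few for the tests, gave 2053 CPM, against 1761 in the microglia-like nuclei of that library. This was below the microglia-like sums of sham 2, sham 3, nephrectomy 2 and nephrectomy 3. The 8 of sham 1, also too few, gave 4409 CPM, against 1902 in its microglia-like nuclei. Since the mural-like class rested on 1 library, in which several of the genes were at 0 UMIs, the contrast was also taken against the 7 classes with all 6 libraries, an alternative chosen after the data were seen. There 27 of the 33 genes tested were higher and 0 lower (12.5% and 9.71% of all genes), with a median of 2.93 against -0.20 over all 12929 genes.

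**Figure D1:**
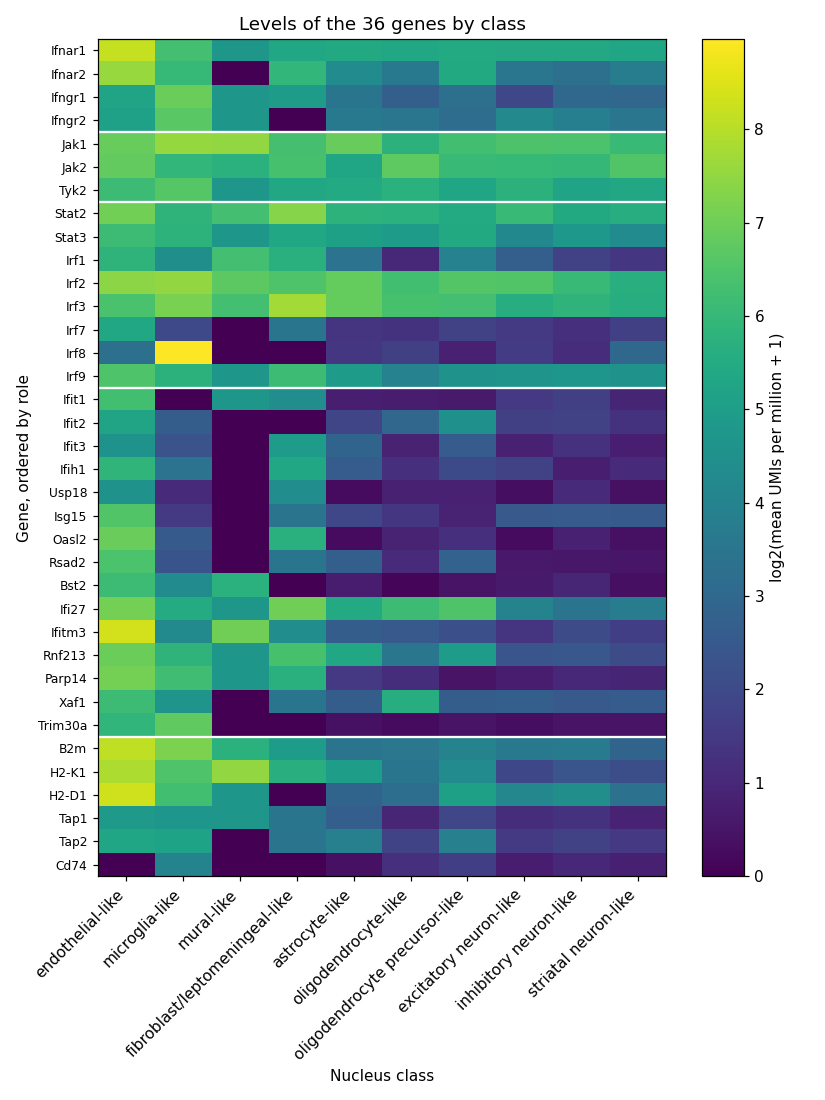
Mean level of each of the 36 genes (rows, grouped by white lines into receptors, kinases, transcription factors, interferon-stimulated genes and antigen presentation) in each class of nuclei (columns), as log2(CPM + 1) with the color scale at the right. The endothelial-like column is bright for Ifitm3, H2-D1, B2m and Ifnar1, and the microglia-like column is brightest at Irf8; the mural-like column is 1 library and the fibroblast/leptomeningeal-like column 2.

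Both subunits of the type I interferon receptor were higher in endothelial-like nuclei, and the interferon gamma receptor was not called. Ifnar1, the first of these subunits, stood at 307 and 267 CPM in sham 2 and 3 and at 188 and 387 in nephrectomy 2 and 3. Its mean was 287 ± 82.8 (SD, n = 4 libraries), against 77.7 ± 17.7 in microglia-like nuclei (n = 6) and 39.0 to 43.9 in the 6 glial and neuronal classes other than microglia. The difference from the mean of the other 9 classes was 2.60 ± 0.22 on the log2 scale (SE, adjusted p = 2.95e-18). Ifnar2 stood at 271 and 124 in the sham libraries and at 226 and 145 in the nephrectomy libraries, a log2 difference of 3.70 ± 0.38 (adjusted p = 8.09e-14). Both subunits were highest in endothelial-like nuclei in 4 of 4 libraries. Ifngr1 averaged 36.9 ± 9.17 and Ifngr2 34.0 ± 20.6 CPM in endothelial-like nuclei, and neither difference passed (adjusted p = 0.0969 and 0.135). Against the 7 classes Ifngr1 passed as well (1.56 ± 0.50, adjusted p = 0.0155).

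The kinases did not set endothelial-like nuclei apart. Jak1 averaged 118 ± 49.6 CPM there, Jak2 112 ± 89.1 and Tyk2 69.3 ± 11.9, and their log2 differences were 0.25 ± 0.24, 0.27 ± 0.30 and 0.38 ± 0.34. Among the transcription factors 5 of 8 were higher: Irf7 by 4.21 ± 0.65, Irf1 by 2.61 ± 0.52, Irf9 by 1.42 ± 0.32, Stat3 by 1.02 ± 0.36 and Stat2 by 0.89 ± 0.25. Irf7, which amplifies type I interferon production, averaged 40.5 ± 29.8 CPM in endothelial-like nuclei and between 1.33 and 2.95 in the 7 classes with all 6 libraries. Irf2, a factor that competes with Irf1 for the same sites, missed the threshold (0.63 ± 0.24, adjusted p = 0.0656) and passed against the 7 classes (adjusted p = 0.0378). Irf3 (-0.28 ± 0.29) and Irf8 (1.66 ± 1.62) were not called.

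All 15 interferon-stimulated genes were higher in endothelial-like nuclei. Ifitm3, which hinders the entry of viruses into cells, stood at 189 and 391 CPM in sham 2 and 3 and at 263 and 448 in nephrectomy 2 and 3. It averaged 323 ± 118 in endothelial-like and 18.4 ± 18.4 in microglia-like nuclei, was at 130.1 in the mural-like library, and did not exceed a mean of 20.2 in the remaining classes. Its log2 difference was 5.20 ± 0.24 (adjusted p = 4.61e-34). Oasl2, a relative of the 2′-5′ oligoadenylate synthetases, stood at 189, 111, 113 and 72.6 in the same order of libraries and differed by 6.38 ± 0.48 (adjusted p = 7.87e-21). Parp14, an ADP-ribosyltransferase, stood at 177, 143, 132 and 96.8 and differed by 4.82 ± 0.36 (adjusted p = 1.48e-20). Rsad2, the antiviral enzyme viperin, stood at 70.8, 104, 56.5 and 109 and differed by 5.93 ± 0.54 (adjusted p = 2.71e-16). In each of these sums the gene was above its mean in every other class. Oasl2 and Rsad2 were highest in endothelial-like nuclei in 4 of 4 libraries, as were Ifit1, Ifih1, Isg15, Irf7, Ifitm3 and H2-D1. The other 11 interferon-stimulated genes differed by 1.55 ± 0.37 (Ifi27) to 6.31 ± 0.64 (Trim30a). Ifi27 was also found in fibroblast/leptomeningeal-like nuclei (159 and 101.1 CPM in sham 2 and 3) and in precursor-like nuclei (mean 90.0). Xaf1, a partner of an apoptosis inhibitor, averaged 69.2 in endothelial-like and 47.2 in oligodendrocyte-like nuclei.

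In antigen presentation, both class I heavy chains, B2m and both subunits of the peptide transporter were higher in endothelial-like nuclei, while the class II chaperone Cd74 was at 0 UMIs in all 4 sums. H2-D1 stood at 259.6 and 404 CPM in sham 2 and 3 and at 245 and 351 in nephrectomy 2 and 3, with a log2 difference of 4.76 ± 0.28 (adjusted p = 2.84e-27). B2m stood at 142 and 417 in the sham libraries and at 245 and 303 in the nephrectomy libraries and differed by 3.87 ± 0.26 (adjusted p = 8.30e-23). H2-K1 stood at 106 and 267 and at 263 and 290.5 and differed by 3.43 ± 0.27 (adjusted p = 1.88e-19). Sham 2 was the lowest of the 4 sums for B2m and H2-K1, at less than the lower nephrectomy library. The transporter genes were less abundant, with Tap1 at 28.0 ± 19.6 and Tap2 at 38.7 ± 25.2. H2-K1 was also at 182 in the mural-like library and at 50.0 ± 13.6 in fibroblast/leptomeningeal-like nuclei. The absence of Cd74 allows a level of up to 7.08 CPM (3 UMIs over all endothelial-like nuclei, counting error only). H2-K1, H2-D1 and other class I genes have near-identical sequences, so reads may be shared between them.

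**Figure D2:**
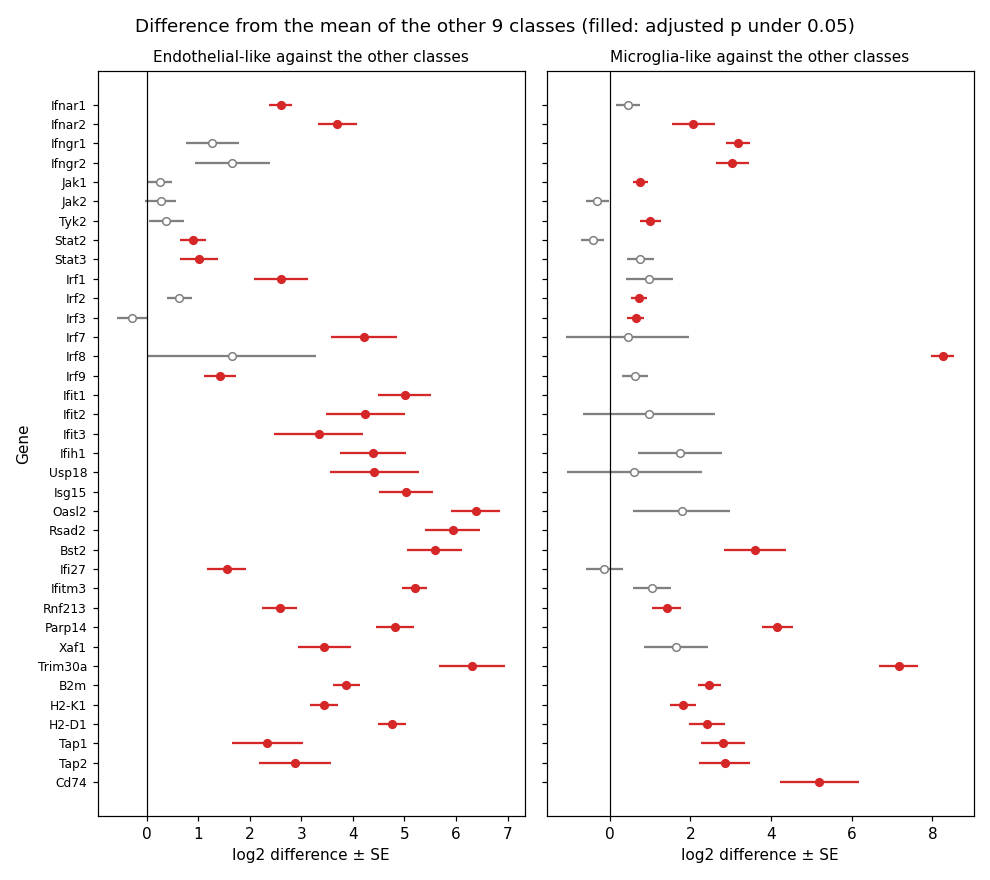
Log2 difference ± SE (horizontal axis) of each gene between endothelial-like (left) or microglia-like (right) nuclei and the mean of the other 9 classes, with filled red points where the adjusted p is under 0.05. Genes without a point had 0 UMIs in that class or a standard error above 5; on the left all 15 interferon-stimulated genes lie to the right of 0, and on the right Irf8 lies farthest out.

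In microglia-like nuclei 18 of the 36 were higher than in the mean of the other 9 classes and 0 were lower, where 11.2% of all genes were higher and 6.23% lower. Irf8, a transcription factor needed for the microglial lineage, stood at 523, 587 and 526 CPM in the sham and 352, 366 and 645 in the nephrectomy libraries. It did not exceed a mean of 9.0 in any other class, and differed by 8.26 ± 0.28 on the log2 scale (adjusted p = 1.67e-43). Trim30a, a member of the TRIM ubiquitin ligase family, stood at 119, 191 and 138 and at 37.1, 97.7 and 66.8, and differed by 7.16 ± 0.48 (adjusted p = 1.52e-23). The levels of Irf8 in every library lay above those of all other classes. Parp14 stood at 23.8, 102 and 118 and at 37.1, 48.8 and 111 and differed by 4.16 ± 0.38 (adjusted p = 1.75e-16). Ifngr1, the binding subunit of the interferon gamma receptor, stood at 143, 102 and 118 and at 92.7, 122 and 156 and differed by 3.19 ± 0.30 (adjusted p = 1.96e-15). B2m stood at 23.8, 191 and 131 and at 83.4, 293 and 156 and differed by 2.47 ± 0.29 (adjusted p = 2.67e-11). Parp14 and B2m were lowest in sham 1 and nephrectomy 1, the 2 libraries with the highest median UMIs per microglia-like nucleus (1479 and 1838.5, against 823 to 1007.5), whose part in these levels was not tested.

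By role, 6 of 6 genes of antigen presentation, 3 of 4 receptors (Ifnar1 was not called), 2 of 3 kinases (Jak1 and Tyk2), 3 of 8 transcription factors and 4 of 15 interferon-stimulated genes were higher in microglia-like nuclei. The 4 were Trim30a, Parp14, Bst2 and Rnf213. Cd74, the chaperone of class II molecules, averaged 15.3 ± 17.7 CPM in microglia-like nuclei and no more than 2.14 in any other class. It was seen in 6 of 416 microglia-like nuclei. Markers of border macrophages were also found in this class, at 0 to 268 CPM in sham and 0 to 64.9 in nephrectomy sums. Neuronal markers were found as well. Striatal markers summed to 140 to 428 CPM in sham and 267 to 760 in nephrectomy sums. For inhibitory markers these ranges were 179 to 285 and 147 to 639, and for excitatory markers 153 to 428 and 156 to 565. The part of all these markers in the levels of Cd74 and the other genes was not tested. Ifngr1, Ifngr2, Jak1, Irf8 and Trim30a were highest in microglia-like nuclei in 6 of 6 libraries.

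Set directly against microglia-like nuclei, a contrast added after the data were seen, endothelial-like nuclei were higher in 19 and lower in 3 of the 36 genes, against 7.91% and 6.78% of all genes. The 3 lower genes were Irf8 (-5.94 ± 0.49, adjusted p = 6.28e-18), Ifngr1 (-1.72 ± 0.44, adjusted p = 0.00236) and Cd74 (adjusted p = 0.0263). Of the 15 interferon-stimulated genes 12 were higher, among them Ifitm3 (3.74 ± 0.36), Isg15 (5.41 ± 0.83) and Rsad2 (5.64 ± 0.88). Isg15 and Rsad2 each had 1 UMI in the 416 microglia-like nuclei, so the size of their differences is uncertain. Leaving out 1 library gave 5.04 to 9.07 for Isg15. Ifit1 was at 0 UMIs in all 6 microglia-like sums, under a floor of 5.87 CPM, and averaged 75.7 ± 15.7 in endothelial-like nuclei. Type I receptor subunits, class I chains and B2m were higher as well, with H2-D1 at 2.12 ± 0.28 and Ifnar1 at 1.94 ± 0.27. For B2m the libraries were split. Of the 4 with both classes, it was highest in endothelial-like nuclei in 2 and in microglia-like nuclei in 2. Trim30a, Parp14 and Rnf213 were not called, nor were the 3 kinases. Without sham 3 and nephrectomy 1 the higher genes numbered 11, and without sham 2 they numbered 12; without sham 3 alone 1 gene was lower.

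Many other genes of the pathway, also listed with earlier results of these data known, were higher in these classes as well. Of 64 tested, 39 were higher and 0 lower in endothelial-like nuclei against the other 9 classes, led by Slfn5 (5.91 ± 0.27), Sp100 (5.63 ± 0.35), Iigp1 (7.48 ± 0.44) and Gbp7 (5.35 ± 0.39), all known as interferon-induced genes. In microglia-like nuclei 32 of the 64 were higher, led by Tmem173, the adaptor STING (7.36 ± 0.53), Irf5 (6.74 ± 0.53), Cgas, the DNA sensor that feeds STING (5.61 ± 0.54), and Uba7, the enzyme that activates Isg15 (5.81 ± 0.72). The interferon genes on this list, which does not hold the whole family, were nearly unseen. Of the 9 listed ones found among the features 5 had 0 UMIs in all gated nuclei, Ifnb1 included, and Ifng had 1 UMI. Ifnk had 37 of the 40 UMIs, 27 of them in oligodendrocyte-like nuclei.

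Interferon-stimulated genes were also seen in the remaining classes. In the 3 neuronal classes, means were under 6 CPM for all of the 15 genes but Ifi27 (9.95 to 15.2). Signalling genes were seen in every class: Jak1 averaged between 53.8 and 186 CPM and Irf2 between 49.6 and 181. Irf3, which starts type I interferon production after virus sensing, averaged 211 ± 73.5 in fibroblast/leptomeningeal-like nuclei (n = 2), 143 ± 59.6 in microglia-like and 113 ± 20.6 in astrocyte-like nuclei. The fibroblast/leptomeningeal-like nuclei also had Stat2 at 79.5 and 243 in sham 2 and 3 and Oasl2 at 39.7 and 60.7. Over all their UMIs, fibroblast/leptomeningeal-like nuclei held Ifit3 at 38.5 CPM (6 UMIs) and endothelial-like nuclei at 21.2 CPM (9 UMIs). Rnf213, a large ubiquitin ligase, was at 89.8 and 109 CPM on the same scale, and Ifi27 at 115 and 113. Each of the 3 Irf3 means differed from the next by less than the larger SD.

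Single nuclei were compared at a common depth, because median UMIs per nucleus were 942.5 in microglia-like, 1034.5 in endothelial-like and 4582 in excitatory neuron-like nuclei. As counted, 70.8% of endothelial-like and 18.2% of excitatory neuron-like nuclei held at least 1 UMI of the 15 interferon-stimulated genes. After each nucleus was thinned to 500 UMIs, the share was 48.7% in endothelial-like nuclei (145 of 298, 95% exact binomial interval 42.9% to 54.5%). It was 19.0% in microglia-like nuclei (interval 15.3% to 23.1%) and 18.8% in fibroblast/leptomeningeal-like nuclei (10.9% to 29.0%). In neurons it was 1.97% to 2.37%. Neurons held more UMIs before thinning, so their share cannot bound what free RNA gives in nuclei with fewer UMIs. At least 2 of the genes were seen in 19.8% of endothelial-like nuclei (15.4% to 24.8%), 1.68% of microglia-like nuclei (0.679% to 3.44%) and 0 of 2534 excitatory neuron-like nuclei (exact upper bound 0.145%). By library the thinned share of endothelial-like nuclei with at least 1 gene was 49.2% in sham 2, 50.4% in sham 3, 60.6% in nephrectomy 2 and 49.0% in nephrectomy 3. Sham 1 and nephrectomy 1, with few such nuclei, were lower, at 37.5% (3 of 8) and 16.7% (3 of 18, interval 3.58% to 41.4%). In nephrectomy 1, 0 of the 18 held at least 2 of the genes. The intervals cover counting error only.

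**Figure D3:**
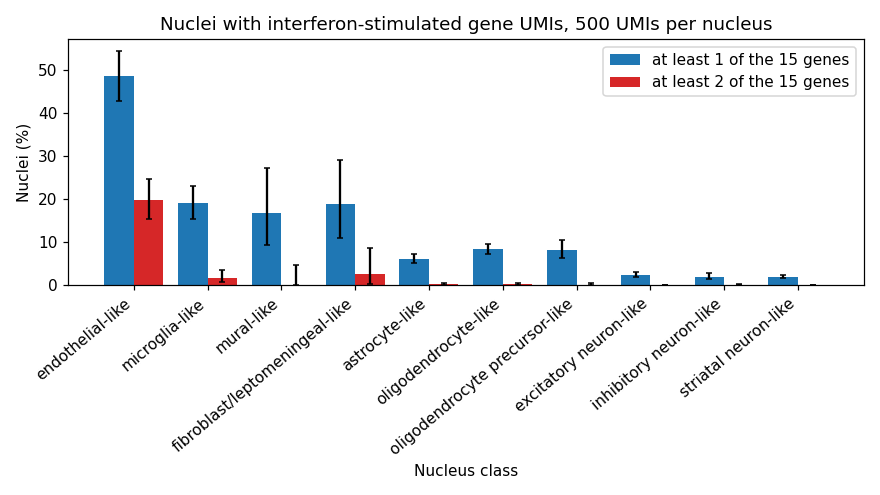
Share of nuclei (vertical axis, percent) with a UMI of at least 1 (blue) or at least 2 (red) of the 15 interferon-stimulated genes after thinning to 500 UMIs per nucleus, by class, all libraries pooled; bars start at 0 and lines are 95% exact binomial intervals. Endothelial-like nuclei reach 48.7% and 19.8%, and the 3 neuronal classes stay under 3%.

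Nephrectomy was compared with sham in each class, to ask whether these genes differ in brain cells after loss of kidney tissue. None of the 36 passed in any of the 8 classes with sums of both groups, where 0% of all genes passed as well (edgeR, adjusted p under 0.05). In endothelial-like nuclei, 2 libraries a group, 11 of the 36 were abundant enough to test, 5 higher and 6 lower after nephrectomy, with a median log2 change of -0.03 against 0.00 over 1918 genes. Unadjusted, 49 of those genes and none of the 11 had p under 0.05.

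Changes of the 11 genes in endothelial-like nuclei were smaller than their standard errors or close to them. Ifi27 stood at 165 and 65.2 CPM in sham and at 169 and 145 in nephrectomy (log2 change 0.57 ± 0.54, SE). H2-K1 (0.51 ± 0.49), Parp14 (-0.48 ± 0.47) and Jak1 (-0.60 ± 0.61) followed, all with adjusted p = 0.9997. Jak1 stood at 118 and 157 in sham and at 151 and 48.4 in nephrectomy, so that nephrectomy 3 alone was low. Stat2 stood at 165 and 130.4 in sham and at 113 and 121 in nephrectomy (-0.28 ± 0.47). Stat2 and Parp14 were lower in both nephrectomy than in both sham libraries, 2 of the 11, while the groups did not overlap for 29.4% of all genes tested (overlap is read from TMM-normalized values throughout). Irf2 stood at 201 and 124 in sham and at 263 and 84.7 in nephrectomy, so that the lowest and the highest of its 4 values were both nephrectomy libraries. The others changed by 0.29 ± 0.48 (Ifitm3), -0.15 ± 0.44 (H2-D1), 0.08 ± 0.56 (Irf2), 0.07 ± 0.44 (Ifnar1), -0.07 ± 0.52 (B2m) and -0.03 ± 0.50 (Ifnar2). On simulated counts of this depth, 65% of 4-fold and 15% of 2-fold changes were recovered. Many genes were changed at once there, which loosens the adjusted threshold, so a change in few genes may be recovered less often.

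**Figure D4:**
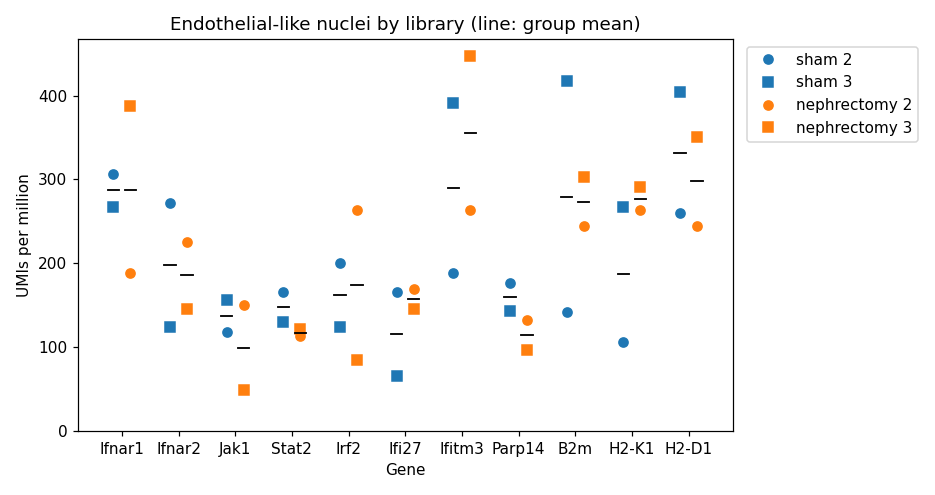
CPM (vertical axis, from 0) of the 11 tested genes in endothelial-like nuclei of each library, sham in blue and nephrectomy in orange, with a line at each group mean. The groups overlap for 9 of the 11 genes; Stat2 and Parp14 are lower in both nephrectomy libraries, without passing the test.

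The other 25 genes were under the filter in endothelial-like nuclei. With no filter, 35 of the 36 had a UMI in the 4 sums, 16 were higher and 19 lower, and none passed (lowest adjusted p = 0.961), as 0.00653% of all 15310 genes did. Xaf1 stood at 118 and 84.8 in sham and at 37.6 and 36.3 in nephrectomy (-1.50 ± 0.78). Ifit2, which binds foreign RNA, stood at 59.0 and 58.7 and at 18.8 and 12.1 (-2.01 ± 1.08). Bst2, the virus tether, stood at 94.4 and 104 and at 18.8 and 60.5 (-1.30 ± 0.75). Isg15, a ubiquitin-like protein, went the other way, with 47.2 and 58.7 in sham and 113 and 145 in nephrectomy (1.14 ± 0.65). These are the 4 with the lowest p, from 0.0546 for Xaf1 to 0.0823 for Bst2 unadjusted. The groups of each did not overlap, which genes picked for a low p would tend to show. Among the remaining genes, Oasl2, Trim30a, Parp14 and Stat2 were lower in both nephrectomy than in both sham libraries. Ifngr2, Tap1, Ifit3 and Irf1 were higher in both. Groups did not overlap for 25.7% of all genes in this fit.

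Counts were also pooled over all 6 libraries. This pool holds the same 4 sums and adds only the 8 nuclei of sham 1 and the 18 of nephrectomy 1, so it is not separate evidence. Ifit2 had 14 UMIs in sham and 2 in nephrectomy, a ratio of CPM values of 0.206 (95% exact interval 0.0227 to 0.895). Bst2 had 26 and 6 (0.332, 0.112 to 0.825), and Xaf1 24 and 6 (0.360, 0.120 to 0.904). The intervals of the other 32 genes with UMIs spanned 1, that of Isg15 included (1.85, 0.870 to 4.02). Over all 35, 19 ratios were above and 16 below 1. These intervals cover counting error only, were computed after the data were seen and are not adjusted over the 35 genes. No share over all genes was computed for this measure, so the named genes cannot be set apart from other genes by it.

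In microglia-like nuclei 6 of the 36 were tested, and the median log2 change was 0.01. Irf3 stood at 47.5, 166 and 112 CPM in sham and at 139, 171 and 223 in nephrectomy (0.64 ± 0.42, adjusted p = 0.987). Irf8 changed by -0.22 ± 0.29 and B2m by 0.32 ± 0.51, with the library values given above. Neither the groups of Irf3 nor those of Irf8 or B2m were separate, and none of the 6 was (9.65% of all genes). With no filter none of 35 genes passed, against 0.0186% of all genes, and Trim30a had the lowest p (-1.32 ± 0.56, adjusted p = 0.822): its sham libraries, at 119 to 191, were above its nephrectomy libraries, at 37.1 to 97.7. It was the 1 gene of 35 whose groups did not overlap in that fit, against 6.65% of all genes.

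In astrocyte-like nuclei 13 of the 36 were tested, 4 higher and 9 lower, with a median of -0.14. Irf2 stood at 154, 153 and 120.2 CPM in sham and at 66.5, 90.2 and 104 in nephrectomy (-0.73 ± 0.23, unadjusted p = 0.00596, adjusted p = 0.968). Ifnar2 stood at 37.3, 16.2 and 23.3 and at 14.3, 7.52 and 16.6 (-0.94 ± 0.44). Tyk2 stood at 22.8, 45.6 and 35.7 and at 52.3, 56.4 and 50.9 (0.54 ± 0.27). The groups did not overlap for Irf2, Tyk2 and, after normalization only, Ifnar1, 3 of 13 against 10.7% of all genes.

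In oligodendrocyte-like nuclei the median of 11 genes was -0.01. Stat2 stood at 53.7, 67.4 and 60.5 in sham and at 27.1, 54.2 and 46.5 in nephrectomy (-0.56 ± 0.29), and Irf9, which acts together with Stat2, at 10.2, 23 and 20.8 and at 5.42, 19.4 and 10.1 (-0.80 ± 0.48). Nephrectomy 1 was the lowest library for both. The groups did not overlap for Irf2 and, after normalization only, Stat2, against 10.1% of all genes. In precursor-like nuclei the median of 10 genes was -0.07 and no groups were separate (10.3% of all genes). Stat2 stood at 47.5, 50.9 and 50.9 and at 19.4, 56.8 and 37.0 (-0.42 ± 0.43). Jak1 stood at 73.9, 81.5 and 48.6 and at 96.8, 71.0 and 81.3 (0.34 ± 0.34).

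In excitatory neuron-like nuclei 18 of the 36 were tested, with a median of -0.03. Irf1, which activates interferon-stimulated genes, stood at 6.61, 9.24 and 5.70 CPM in sham and at 5.00, 3.41 and 3.33 in nephrectomy (-0.91 ± 0.39, adjusted p = 0.821). Stat3 stood at 13.2, 14.8 and 15.6 and at 20.6, 18.8 and 19.2 (0.38 ± 0.22). Irf1 was lower and Stat3 higher in every nephrectomy library, 2 of 18 against 12.3% of all genes. Jak1 stood at 80.1, 77.0 and 80.2 and at 105, 82.3 and 99.9 (0.23 ± 0.15). In inhibitory neuron-like nuclei 12 were tested, 3 higher and 9 lower (median -0.27). Irf3 stood at 29.8, 84.3 and 81.4 and at 52.4, 41.2 and 44.5 (-0.46 ± 0.35), and Stat3 at 40.9, 21.1 and 28.4 and at 21, 30.9 and 18.8 (-0.45 ± 0.36). Only Irf2 was separate there (10.7% of all genes). In striatal neuron-like nuclei 21 were tested, 13 higher and 8 lower (median 0.06), with no separate groups (11.3% of all genes). Ifi27 stood at 3.75, 11.3 and 14.8 and at 20.3, 14.4 and 12.3 (0.58 ± 0.37), and B2m at 3.50, 5.01 and 6.85 and at 11.4, 5.65 and 5.85 (0.51 ± 0.35). For both, sham 1 was the lowest and nephrectomy 1 the highest library.

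Of the 36 genes 2 were tested in all 8 classes. Jak1 was lower after nephrectomy in 4 and higher in 4, and Irf2 was lower in 7, without passing in any. Beside the astrocyte-like values, it stood at 102, 74.0 and 81.9 in sham and 56.9, 67.7 and 67.9 in nephrectomy in oligodendrocyte-like nuclei (-0.45 ± 0.25). In inhibitory neuron-like nuclei it stood at 92.0, 69.3 and 80.2 and at 43.7, 58.0 and 60.9 (-0.62 ± 0.25, unadjusted p = 0.0321, adjusted p = 0.944). In precursor-like nuclei it stood at 174, 112 and 69.4 and at 83.9, 78.1 and 51.7 (-0.70 ± 0.37), and in striatal neuron-like nuclei at 56.8, 50.3 and 52.6 and at 40.5, 52.7 and 44.6 (-0.28 ± 0.16). The groups were separate in 3 of the 8 classes, a count for which no share over all genes was computed. The classes come from the same libraries and are not independent: of 1147 genes tested in all 8 classes, 535 (46.6%) went one way in at least 7.

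**Figure D5:**
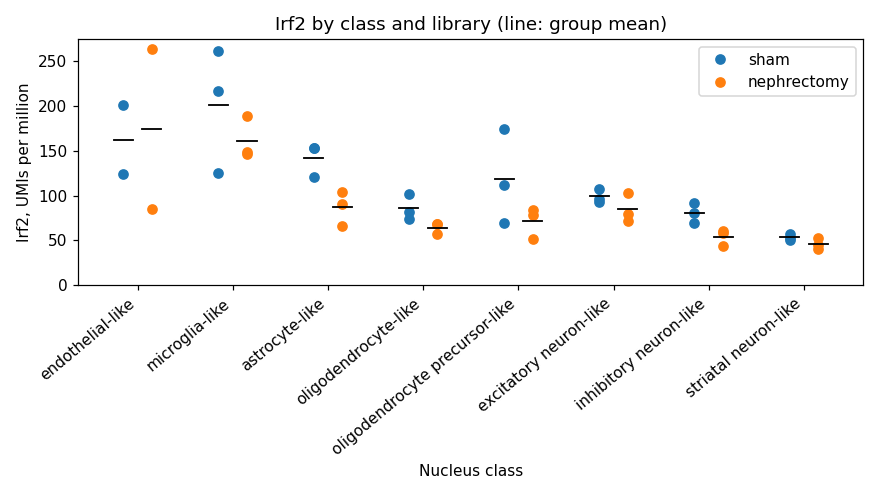
Irf2 in CPM (vertical axis, from 0) by class, 1 point per library, sham in blue and nephrectomy in orange, with a line at each group mean. The nephrectomy mean is the lower in every class but the endothelial-like, and points of the groups overlap except in astrocyte-like, oligodendrocyte-like and inhibitory neuron-like nuclei.

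The change in endothelial-like nuclei was also tested against the mean change of the other 7 classes. None of 33 genes passed, where 0% of all 12929 genes passed. The lowest adjusted p, 0.847, belonged to Ifit2 (-3.20 ± 1.22), the 1 gene of the 33 with an unadjusted p under 0.05, as had 675 of all genes.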

How the data were processed

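UMI counts were used as the authors deposited them, 1 matrix of whole numbers per library. Per the labels' protocols, nuclei were sorted by flow cytometry, captured with the Chromium 3′ kit version 3.1, sequenced on a NextSeq 500 and mapped to mm10 with introns included. Cell Ranger is given as version 6.0.1 per the file headers, 3.0 per the labels' protocols and 2.1.1 per the submitters' processing notes. Library totals were 15691316 to 41532967 UMIs. Sham 3 and nephrectomy 1 held 14756 and 12637 barcodes and the others 2637 to 5033; median UMIs per kept nucleus were 1001 in nephrectomy 1 and 2008 to 5353.5 elsewhere. Library pairs shared 1 to 50 barcodes (at most 0.45% of the smaller library).

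A nucleus took a class with at least 3 UMIs from at least 2 markers of it and at least 3 times the marker UMIs of any other class (inhibitory and striatal were weighed against each other without Gad1, Gad2 and Slc32a1). This removes nuclei with mixed markers, and no doublet caller was run. Counts were summed per library and class and compared by the robust quasi-likelihood test of edgeR 4.0.16 in R 4.3.3, after filterByExpr and with TMM scaling, 2-sided, with Benjamini-Hochberg adjustment over all genes tested. Each class had its own nephrectomy fit. Class contrasts and the test of a difference in change came from 1 fit with the library as a block; the latter used 7 other classes, since mural-like and fibroblast/leptomeningeal-like sums held no nephrectomy library. DESeq2 1.42.0 and limma 3.58.1 served as alternatives. The edgeR steps were tested on simulated data. Gene positions come from GENCODE M21 (GRCm38).

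The genes and lists were chosen with earlier results of these data known. Library values are given for up to 12 genes with the lowest p in endothelial-like nuclei, 3 in each other class, and 8 and 5 called in the endothelial-like and microglia-like contrasts; those given beyond that were chosen after their values were seen. Of other pathway genes up to 4 with the lowest p were named.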

Additional observations from a re-analysis of the deposited data

Results flagged for a closer look

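The endothelial-like nuclei of 2 libraries were too few for the tests, and the genes had UMIs there. The limits given are what a count of 0 allows. Striatal neuron-like sums over the 36 genes, at 398 to 571 CPM, lie above them too, so passing them does not set these nuclei apart. In sham 1, 8 such nuclei held 53 UMIs of 24 of the 36 genes, which is 4409 CPM against a limit of 249.6. In nephrectomy 1, 18 such nuclei held 78 UMIs of 26 genes, which is 2053 CPM against a limit of 79.0. The UMIs of the 15 interferon-stimulated genes numbered 19 and 29 of these.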

How the results depend on the processing

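None of the 36 genes passed after nephrectomy in any class under any setting run, and none was lower in endothelial-like or microglia-like nuclei against the other classes. The counts of all genes moved more. After nephrectomy the genes called in endothelial-like nuclei numbered 1 without a filter, 5 without both sham 3 and nephrectomy 1, 4 with equal nuclei per library and 0 to 5 when 1 library was left out. In microglia-like nuclei they numbered 3 without a filter, 2 with a purer gate and 0 to 2 leaving out 1 library. In precursor-like nuclei there was 1 without sham 3 and nephrectomy 1 and 1 with nuclei of at least 1000 genes. In excitatory neuron-like nuclei there were 5 by DESeq2, 49 without a filter and 0 to 1 leaving out 1 library, and in inhibitory neuron-like nuclei 3 without a filter. The test of a difference in change called 2 genes with a stricter gate, 1 with a purer gate and 0 to 7 leaving out 1 library. In the class contrasts limma-voom called 2995 genes higher and 1908 lower in endothelial-like nuclei, 3482 and 2729 in microglia-like nuclei, and 1699 lower in endothelial-like than in microglia-like nuclei. Without normalization factors 332 and 562 genes were lower in the endothelial-like and microglia-like contrasts, and against 7 classes 1255 and 1975. Leaving out 1 library gave 317 to 636 genes lower in the endothelial-like contrast (without nephrectomy 3 the fewest, without sham 2 362). Of the 36 genes, 11 were higher than in microglia-like nuclei without sham 3 and nephrectomy 1, and 12 to 18 higher and 1 to 4 lower leaving out 1 library. The cause of these moves was not tested.

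Log2 changes of 8 genes in endothelial-like nuclei changed sign under some setting, Jak1 and Ifi27 included, none of them called. By limma-voom Ifnar1 was -0.044, B2m 0.048, Irf2 -0.26 and Ifnar2 0.091. Without a filter Ifnar1 was -0.055 and Irf2 -0.077. Without sham 3 and nephrectomy 1 Ifi27 was -0.047, H2-D1 0.25, Ifnar1 -0.016, B2m 0.99 and Irf2 -0.25, and Jak1 in precursor-like nuclei -0.052. With a stricter gate B2m was 0.038, Irf2 -0.073 and Ifnar2 0.039. Irf2 was -0.0069 with a purer gate and -0.11 with equal nuclei, Ifnar1 was -0.20 with at least 10 nuclei per library, and B2m in microglia-like nuclei -0.13 with a purer gate. Leaving out 1 library gave -0.64 to 0.99 for B2m, -0.48 to 0.25 for H2-D1, -0.047 to 1.2 for Ifi27, -0.19 to 0.97 for Ifitm3, -0.61 to 0.39 for Ifnar1, -0.54 to 0.50 for Ifnar2, -0.93 to 0.73 for Irf2 and -1.57 to 0.083 for Jak1, and -0.061 to 0.69 for B2m in microglia-like nuclei; a lone library was then assumed to vary like the other group. Libraries share only a replicate number (correlation of same-numbered deviations -0.29 to 0.22 over 4 classes). The fit with the replicate number as a block called 0 genes in all 8 classes, with B2m at 0.052, Irf2 at -0.0075 and Ifnar2 at 0.0028. Nuclei of at least 1000 genes were too few for the endothelial-like and microglia-like tests and the class contrasts, which were not run at that setting. Depth kept 25 of the 36 genes under the filter in endothelial-like, 30 in microglia-like and 26 in precursor-like nuclei.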
